A study of Danio rerio with 12 samples.

Results

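Cell adhesion genes of 4 families were followed through zebrafish gastrulation: cadherins with protocadherins and Celsr, integrins, and claudins. Members were chosen by name, as every gene whose symbol on the array starts with cdh and a digit, pcdh, celsr, itga, itgb or cldn. *pcdh8* was left out, and earlier results of these data were known when the members were chosen. The rule gave 95 of 13286 genes with a symbol, measured by 187 of 45220 array features. Where a gene had several features, the one of the highest mean over all arrays stood for it, and the other features were set beside it. There were 12 classical and related cadherins, 1 *celsr* gene, 8 single-gene protocadherins, 27 protocadherins of the gene clusters, 7 integrin alpha and 8 integrin beta subunits, and 29 claudins. A further 3 members, *itgb1bp1*, *itgbl1* and *nmrk2* (*itgb1bp3* on the array), entered through the start of their array symbol and are not integrin subunits.

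Whole AB embryos were injected at the one-cell stage with morpholinos (MOs), antisense oligomers against the transcript of a gene. The double MO group received 0.5 pmol *tbx16* MO and 0.25 pmol *ta* MO, and the control MO group 0.75 pmol standard control MO. Both were collected at 90% epiboly (9 hpf) and at shield (6 hpf), which gave 4 groups of 3 samples: 90% epiboly double MO, 90% epiboly control MO, shield double MO and shield control MO. Each sample was RNA of 200 embryos on an array of its own, and values are normalized log2 signals. *ta* and *tbx16* encode T-box transcription factors of the mesoderm-forming margin, and the MOs lower their function in every cell of the embryo without altering the gene. The labels do not tell whether replicates are separate clutches, so the p-values reflect the spread of these samples and nothing wider.

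Cadherins hold like cells together through calcium-dependent contacts and are tied to actin by catenins. E-cadherin (*cdh1*) is needed for the spreading of the blastoderm over the yolk, and N-cadherin (*cdh2*) for the movements of mesoderm and neural plate. Protocadherins are related proteins with weaker adhesion, and those of the clusters join a variable exon to shared constant exons, so an array probe may not tell neighbors apart. Integrins are pairs of an alpha and a beta subunit that bind matrix proteins such as fibronectin and laminin. Claudins form the strands of tight junctions, which at these stages seal the enveloping layer, the outer epithelium of the embryo.

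The array signal of *ta* (*tbxta* in current nomenclature) was 10.80, 11.27 and 11.08 in double MO embryos, against 9.44, 9.15 and 9.14 in control MO embryos, at 90% epiboly. At shield it was 11.48, 11.36 and 11.83 in double MO embryos and 9.99, 10.60 and 10.50 in control MO embryos. *tbx16* was at 9.49, 9.64 and 9.99 in double MO and 9.12, 9.17 and 9.73 in control MO embryos at 90% epiboly, and at 10.66, 11.01 and 10.99 in double MO and 10.11, 10.46 and 10.47 in control MO embryos at shield. Every double MO value of *ta* lay above every control MO value of its stage. The same held for *tbx16* at shield, while at 90% epiboly its values overlapped. Neither transcript was thus lower in double MO embryos, and transcript signal does not measure how far an MO blocks the protein. Of 7 measured genes of paraxial mesoderm, 6 were lower in double MO embryos at 90% epiboly and 5 at shield (limma, adjusted p under 0.05). Their summed linear signal was 936 to 1024 in double MO samples, against 12890 to 15667 in control MO samples, at 90% epiboly, and 1020 to 1073 against 7147 to 9619 at shield. In RNA of whole embryos, fewer cells of a type and less RNA per cell cannot be told apart.

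Few adhesion genes passed the test in double MO embryos. At 90% epiboly, *itgb5* fell and *pcdh18a* rose in double MO embryos, which made 2 of 95 members past an adjusted p of 0.05 (limma), against 0.790% of all genes. At shield, *itgb5* fell and *pcdh2g29* rose, again 2 of 95 members, against 0.549% of all genes. By direction, 0.572% of all genes were lower and 0.218% higher at 90% epiboly, and 0.263% lower and 0.286% higher at shield. The median member had a log2 fold change of -0.01 at 90% epiboly and -0.00 at shield, and the median of all genes was 0.01 and 0.02. At an unadjusted p under 0.05 there were 8 members (8.42%) at 90% epiboly, beside 6.68% of all genes, and 7 (7.37%) at shield, beside 8.96% of all genes. The 3 double MO values lay wholly to the same side of the 3 control MO values in 16 members (16.8%) at 90% epiboly, where this held for 15.1% of all genes, and in 11 members (11.6%) at shield, where it held for 11.8%. Simulated data had 45220 features and the spread pooled over all 12 arrays, not that of shield alone. A log2 change of 1 between the shield groups was recovered for 22 of 50 features and a change of 2 for 50 of 50. At that spread, changes under 1 were often not detectable with 3 arrays a group.

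**Figure D1:**
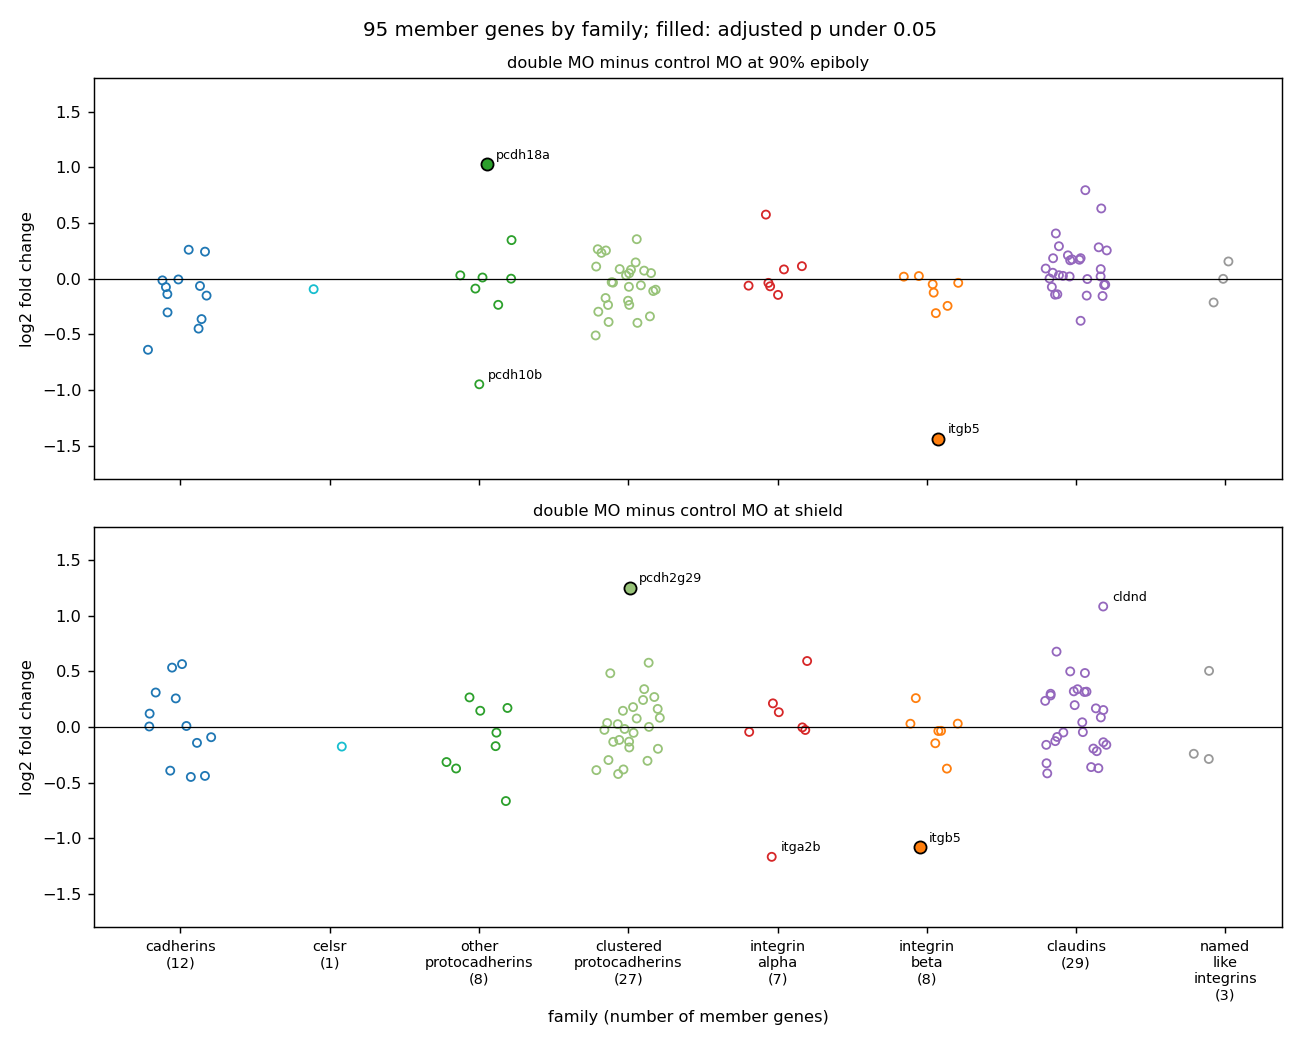
Log2 fold change of double MO minus control MO for each of the 95 members, grouped by family (number of members in parentheses), at 90% epiboly (top) and shield (bottom). Filled points passed an adjusted p of 0.05: *itgb5* at -1.44 and *pcdh18a* at 1.03 at 90% epiboly, and *itgb5* at -1.08 and *pcdh2g29* at 1.25 at shield, while most members lay close to 0.

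*itgb5*, which encodes an integrin beta subunit that pairs with the alpha V chain, was the only member that fell at both stages. At 90% epiboly its signal was 8.25, 8.31 and 8.46 in double MO embryos and 9.97, 9.64 and 9.72 in control MO embryos. At shield it was 8.04, 8.38 and 8.11 in double MO embryos and 9.46, 9.13 and 9.17 in control MO embryos. At each stage every double MO sample lay below every control MO sample. The log2 fold change was -1.44 (SE 0.17, 95% interval -1.79 to -1.08, adjusted p = 0.0003 from limma) at 90% epiboly, or 0.369 times the control MO signal. At shield it was -1.08 (SE 0.17, 95% interval -1.44 to -0.72, adjusted p = 0.0073 from limma), or 0.473 times the control MO signal.

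The other 3 features of *itgb5* also ran lower in double MO embryos, by log2 fold changes of -1.23 to -0.54 at 90% epiboly and of -0.89 to -0.75 at shield. Of these 3, feature 35511 passed at 90% epiboly (-1.23, adjusted p = 0.003 from limma), and none passed at shield, where feature 35511 came closest (-0.89, adjusted p = 0.050). Between stages the call was not shown to differ, as the interaction was -0.36 (SE 0.23, adjusted p = 1.00). The shield call of *itgb5* was lost when shield was fitted on its own arrays (adjusted p = 0.13) and when the shield arrays numbered 1 were left out (-0.91, adjusted p = 0.081). The fall ran beside that of the paraxial mesoderm genes, whose part in it, as in the other calls in double MO embryos, was not tested.

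**Figure D2:**
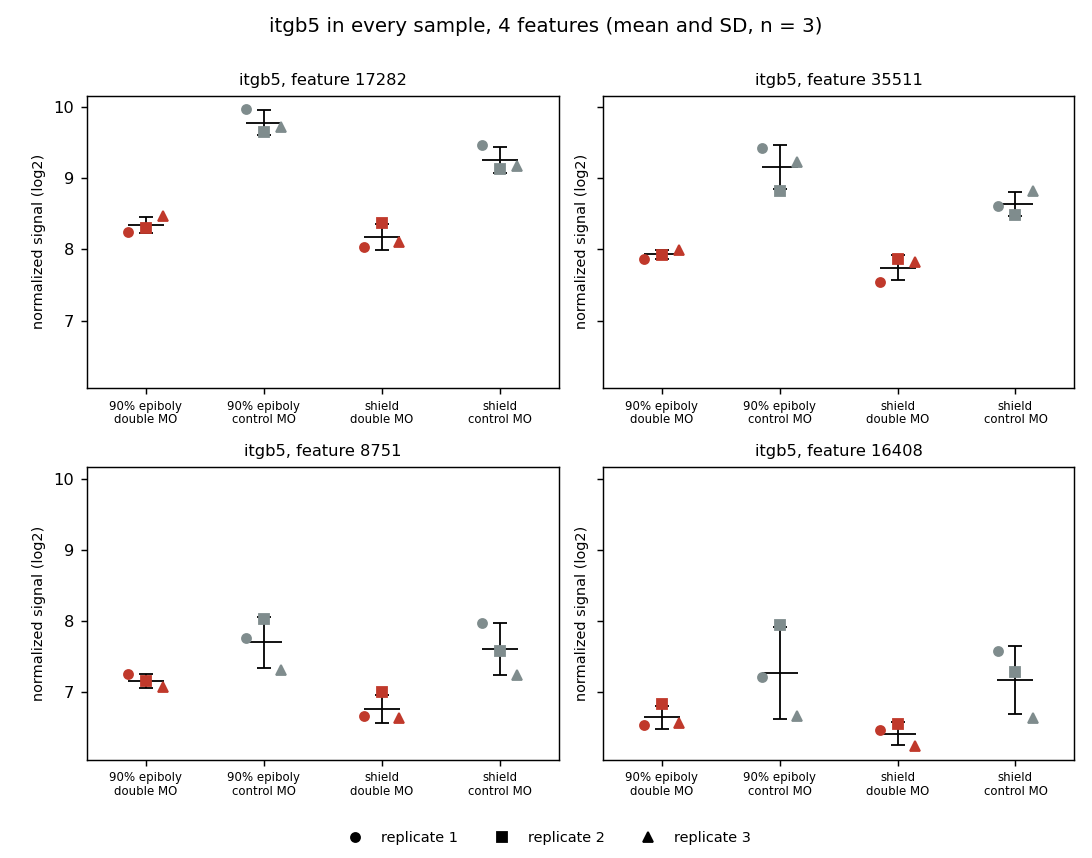
Normalized log2 signal of the 4 *itgb5* features in the 12 samples, by group, with the mean and SD of 3 samples as bars. In feature 17282, which stands for the gene, the double MO samples lie at 8.04 to 8.46 and the control MO samples at 9.13 to 9.97, with no overlap at either stage, and the dimmer features show the same order with more spread.

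Other integrin subunits did not pass the test in double MO embryos. *itgav*, the alpha V partner of *itgb5*, was at 7.58, 7.45 and 7.11 in double MO embryos, against 6.74, 6.82 and 6.85 in control MO embryos, at 90% epiboly. At shield it was at 7.67, 8.11 and 7.71 in double MO embryos and 7.40, 7.10 and 7.20 in control MO embryos. The double MO values lay above the control MO values at both stages, the opposite side to *itgb5*, with log2 fold changes of 0.58 (95% interval 0.20 to 0.96, adjusted p = 0.34 from limma) at 90% epiboly and 0.59 (95% interval 0.21 to 0.97, adjusted p = 0.26) at shield. Of the other 3 *itgav* features, 2 were positive and 1 negative at both stages. *itga5*, the alpha subunit of the fibronectin receptor, differed by 0.08 at 90% epiboly and -0.04 at shield. Its beta partner *itgb1b* was at -0.24 and -0.37, and the paralog *itgb1a* at 0.02 and 0.03. The laminin receptor subunits *itga6a* (-0.06 at 90% epiboly, 0.21 at shield), *itga6b* (-0.07 and 0.13) and *itgb4* (-0.31 and 0.26) did not pass either, and *itga6b* and *itgb4* were dim in every group. *itga2b*, known from thrombocytes, had a log2 fold change of -1.17 at shield (adjusted p = 0.53 from limma) with the control MO sample numbered 2 far above the rest, at 8.55 against 5.74 and 6.45 in the other control MO samples and 5.38, 6.28 and 5.58 in double MO samples.

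Among protocadherins outside the clusters, *pcdh18a* rose at 90% epiboly. Its signal was 8.68, 8.59 and 8.39 in double MO embryos and 7.42, 7.59 and 7.55 in control MO embryos, 2.04 times the control MO signal and with no overlap (log2 fold change 1.03, SE 0.18, adjusted p = 0.012 from limma). At shield the groups overlapped, at 6.61, 6.64 and 6.16 in double MO embryos and 6.49, 6.34 and 6.05 in control MO embryos (0.17, adjusted p = 0.84). The dimmer second feature was at 6.56, 6.96 and 6.51 in double MO embryos and 6.57, 6.19 and 5.92 in control MO embryos at 90% epiboly (0.45, adjusted p = 0.82), so the rise rests on feature 14161. The interaction of stage and MO for *pcdh18a* was 0.86 (SE 0.25, adjusted p = 0.68), which leaves the stages not shown to differ. Leaving out any of the 3 control MO samples, or double MO sample 1 or 2, at 90% epiboly moved the adjusted p over 0.05 (highest 0.075) with log2 fold changes of 0.97 to 1.07. Its paralog *pcdh18b* was at 0.00 at 90% epiboly and -0.31 at shield.

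*pcdh2g29*, a gamma-type member of a protocadherin cluster, rose at shield. Its signal was 7.53, 6.42 and 6.87 in double MO embryos, against 5.48, 5.75 and 5.83 in control MO embryos, where it lay among the dim features of the array. The log2 fold change was 1.25 (SE 0.24, adjusted p = 0.039 from limma), and the double MO samples lay up to 7.53 and down to 6.42. With the replicate number as a block, which pairs the shield samples, the adjusted p was 0.060. The call also went when any shield control MO sample, or shield double MO sample 1 or 3, was left out (adjusted p = 0.082 to 0.12), and in all it held in 8 of 23 alternatives. At 90% epiboly the gene was dim in both groups, at 5.69, 6.18 and 5.77 in double MO and 5.82, 5.76 and 5.90 in control MO embryos. It has 1 feature, and probes of neighboring cluster genes may share its target.

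*pcdh10b*, the ortholog of OL-protocadherin, gave different answers by feature. In feature 26611 the signal at 90% epiboly was 8.22, 8.24 and 7.89 in double MO embryos and 9.83, 9.48 and 9.55 in control MO embryos, a log2 fold change of -1.51 (SE 0.27, adjusted p = 0.015 from limma). The brighter feature 3246 had 8.70, 8.15 and 8.22 in double MO and 9.52, 9.12 and 9.27 in control MO embryos, also without overlap, but did not pass (-0.95, adjusted p = 0.16). Feature 40135 was at -0.69 (adjusted p = 0.73). All 3 features thus had a lower mean in double MO embryos at 90% epiboly. At shield they parted, with 0.15 in feature 3246, -1.14 in feature 26611 and -0.50 in feature 40135, and none passed. The call of feature 26611 was lost without any of the 90% epiboly control MO samples or without double MO sample 2 or 3 (adjusted p = 0.051 to 0.097).

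**Figure D3:**
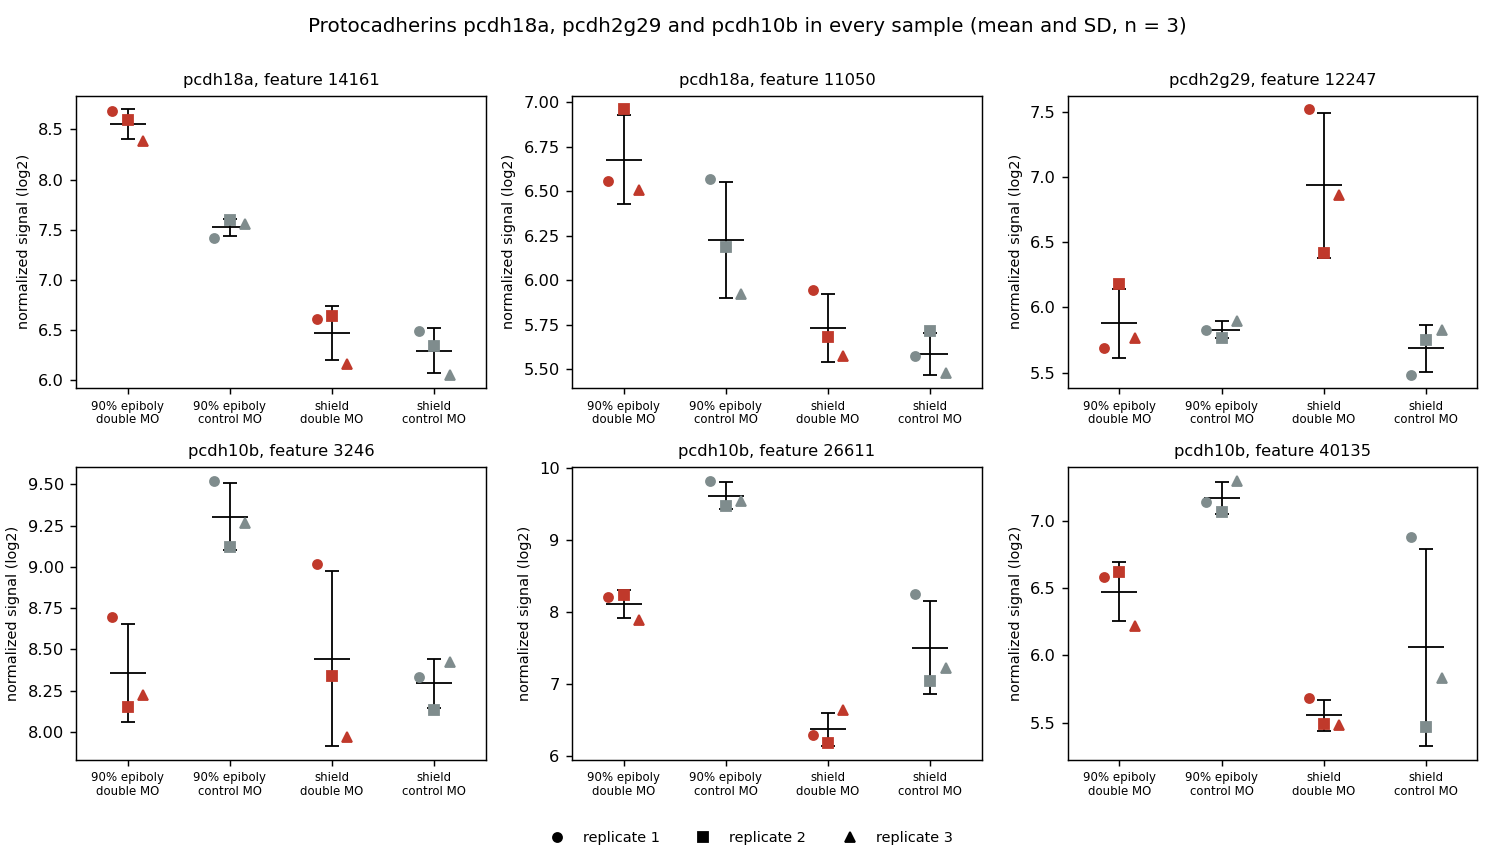
Normalized log2 signal of the features of *pcdh18a* (2), *pcdh2g29* (1) and *pcdh10b* (3) in the 12 samples, by group, with the mean and SD of 3 samples as bars and a scale of its own in each panel. *pcdh18a* feature 14161 lies at 8.39 to 8.68 in double MO and 7.42 to 7.59 in control MO embryos at 90% epiboly, and *pcdh2g29* is above 6 in all 3 shield double MO samples.

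The other 26 clustered protocadherins did not pass at either stage, and 15 of the 27 were dim (mean under 6.56, the 40th percentile of features) in every group. Their median log2 fold change was -0.03 at 90% epiboly and 0.00 at shield. *pcdh19*, which guides cell movements of the zebrafish neural plate, was at 11.04, 10.63 and 10.89 in double MO and 10.53, 10.86 and 11.08 in control MO embryos at 90% epiboly. The groups overlapped (0.03), and at shield they differed by -0.17 (SE 0.39, adjusted p = 0.94). *pcdh10a* was at -0.09 and 0.27.

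No classical cadherin passed in double MO embryos. *cdh2* had the smallest p among them at 90% epiboly, at 11.64, 12.55 and 12.22 in double MO embryos and 12.90, 12.70 and 12.74 in control MO embryos at 90% epiboly. At shield it was at 11.63, 11.64 and 11.33 in double MO embryos and 11.86, 12.11 and 11.97 in control MO embryos. Every double MO sample lay below the controls of its stage, with log2 fold changes of -0.64 (95% interval -1.09 to -0.19, adjusted p = 0.43 from limma) at 90% epiboly and -0.45 (adjusted p = 0.56) at shield. The second *cdh2* feature was at -0.38 and -0.25. *cdh1* was at 9.07, 9.07 and 9.01 in double MO and 9.05, 8.70 and 8.62 in control MO embryos at 90% epiboly, with overlap (0.26, adjusted p = 1.00). At shield *cdh1* differed by -0.14 (adjusted p = 0.87). Cadherins *cdh6* (-0.30 at 90% epiboly, -0.39 at shield) and *cdh11* (-0.45 and 0.53) did not pass either, nor did *celsr2*, an atypical cadherin of planar cell polarity (-0.09 and -0.17).

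None of the 29 claudins passed in double MO embryos at either stage. At 90% epiboly 20 of 29 had a positive log2 fold change (median 0.05), and at shield 16 of 29 (median 0.09). Over all genes, 6901 of 13286 were positive at 90% epiboly and 6938 at shield. The smallest claudin p at 90% epiboly was that of *cldnb*, at 11.81, 11.91 and 11.67 in double MO and 11.23, 11.35 and 10.91 in control MO embryos. Its brightest feature did not overlap there but did not pass (0.63, adjusted p = 0.24 from limma), and was at 0.30 at shield. *cldnd* had the largest log2 fold change, with 9.36, 8.86 and 8.86 in double MO and 8.18, 8.54 and 7.97 in control MO embryos at 90% epiboly (0.80, adjusted p = 0.82 from limma). At shield it was at 10.67, 12.20 and 11.95 in double MO and 10.15, 11.02 and 10.39 in control MO embryos, where the samples overlapped (1.08, SE 0.35, adjusted p = 0.32). Without shield double MO sample 1, the lowest of its group, *cldnd* passed at shield (1.55, adjusted p = 0.028). It passed in only 1 of 23 alternatives (highest adjusted p 0.90 from limma or the t-test of the methods). *cldn7b*, an epithelial claudin, was higher in all 5 of its features, by 0.38 to 0.64 at 90% epiboly and 0.47 to 0.59 at shield, none past 0.05. *cldne*, a claudin of the enveloping layer, differed by 0.18 and 0.17, and *cldnf* by 0.21 and 0.09. *cldn5a* was at -0.16 and 0.49, *cldn5b* at -0.38 and -0.13, *cldn7a* at 0.05 and -0.42, and *cldni* at 0.29 and 0.15. The summed signal of 11 enveloping layer genes was 223834 to 264984 in double MO samples and 280086 to 324872 in control MO samples at 90% epiboly, with none of the 11 past the test.

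Partner proteins of these adhesion molecules were followed as well. Over 6 lists of such partners, of 11 to 18 measured genes each, 2 genes passed at 90% epiboly and 2 at shield. Over all genes, 0.790% passed at 90% epiboly and 0.549% at shield. *fn1b*, which encodes fibronectin, an integrin ligand, was at 8.93, 8.42 and 9.32 in double MO and 10.24, 10.23 and 10.18 in control MO embryos at 90% epiboly. It fell by 1.32 on the log2 scale (SE 0.25, adjusted p = 0.025 from limma), and its other 3 features also fell, by log2 fold changes of -2.33, -1.64 and -1.64. At shield none of its 4 features passed, and the brightest was at 9.65, 8.70 and 9.28 in double MO and 9.42, 9.64 and 9.78 in control MO embryos (-0.40, adjusted p = 0.69). *prickle2b*, a planar polarity partner of Celsr, was at 7.92, 8.01 and 8.13 in double MO and 9.13, 8.72 and 8.71 in control MO embryos at 90% epiboly (-0.84, adjusted p = 0.041).

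At shield, *tjp2b*, a tight junction scaffold that binds claudins, was at 10.83, 11.05 and 11.56 in double MO and 9.90, 9.96 and 10.01 in control MO embryos. It rose by 1.19 (SE 0.19, adjusted p = 0.011 from limma), and both of its other features passed as well (1.36 and 1.09). *snai1a*, a repressor of cadherin genes in other vertebrates, was at 12.28, 12.45 and 12.37 in double MO and 13.33, 13.22 and 13.15 in control MO embryos at shield (-0.87, adjusted p = 0.046), while its other feature did not pass (-0.66). Of 11 catenins and cadherin partners and 14 integrin adaptors and kinases, none passed at either stage.

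Whether the MO effect differed between stages was tested by the interaction. No member passed, against 0.211% of all genes, and 6 members (6.32%) had an unadjusted p under 0.05, beside 3.86% of all genes. The smallest were those of *pcdh2g29* (-1.20, unadjusted p = 0.0037), *pcdh18a* (0.86, unadjusted p = 0.0046) and *pcdh10b* (-1.10, unadjusted p = 0.0073), with adjusted p of 0.62, 0.68 and 0.86. Each value is of the feature that stands for the gene. *pcdh10b* changed sign between stages in feature 3246 alone, as features 26611 and 40135 had lower means in double MO embryos at both stages. The second *pcdh18a* feature rose between stages by 0.94 in double MO and 0.64 in control MO embryos, against 2.09 and 1.23 in feature 14161. Of the partner genes, *fn1b* did not pass the interaction in its brightest feature (-0.92, adjusted p = 1.00 from limma), but features 29347 (-1.96, adjusted p = 0.012) and 40596 (-1.31, adjusted p = 0.018) passed.

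Stage moved more adhesion genes than the MOs did. In double MO embryos, 10 members (10.5%) were higher at 90% epiboly than at shield and 5 (5.26%) were lower (limma, adjusted p under 0.05). Over all genes this was 7.89% and 8.23%. In either direction this was 15 of 95 members (15.8%), beside 16.1% of all genes. In control MO embryos, 12 members (12.6%) were higher and 6 (6.32%) lower, against 7.20% and 8.29% of all genes. Together this was 18.9% of members beside 15.5% of all genes. Pooled over both directions, these shares were near the background of all genes. By direction, the share higher lay above that of all genes and the share lower below it, in both treatments, which was not tested. With single arrays left out, the members higher ran from 4 to 11 in double MO and from 5 to 13 in control MO embryos. Across the 95 members the stage changes of double MO and control MO embryos had a Pearson r of 0.842 (0.768 over all genes), a description over genes of comparisons that share no arrays. There were 11 members called in both with the same sign, 73.3% of those called in double MO and 61.1% of those called in control MO embryos, and none with opposite sign. The matching shares over all genes are not given, so this overlap does not set the members apart from other genes.

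**Figure D4:**
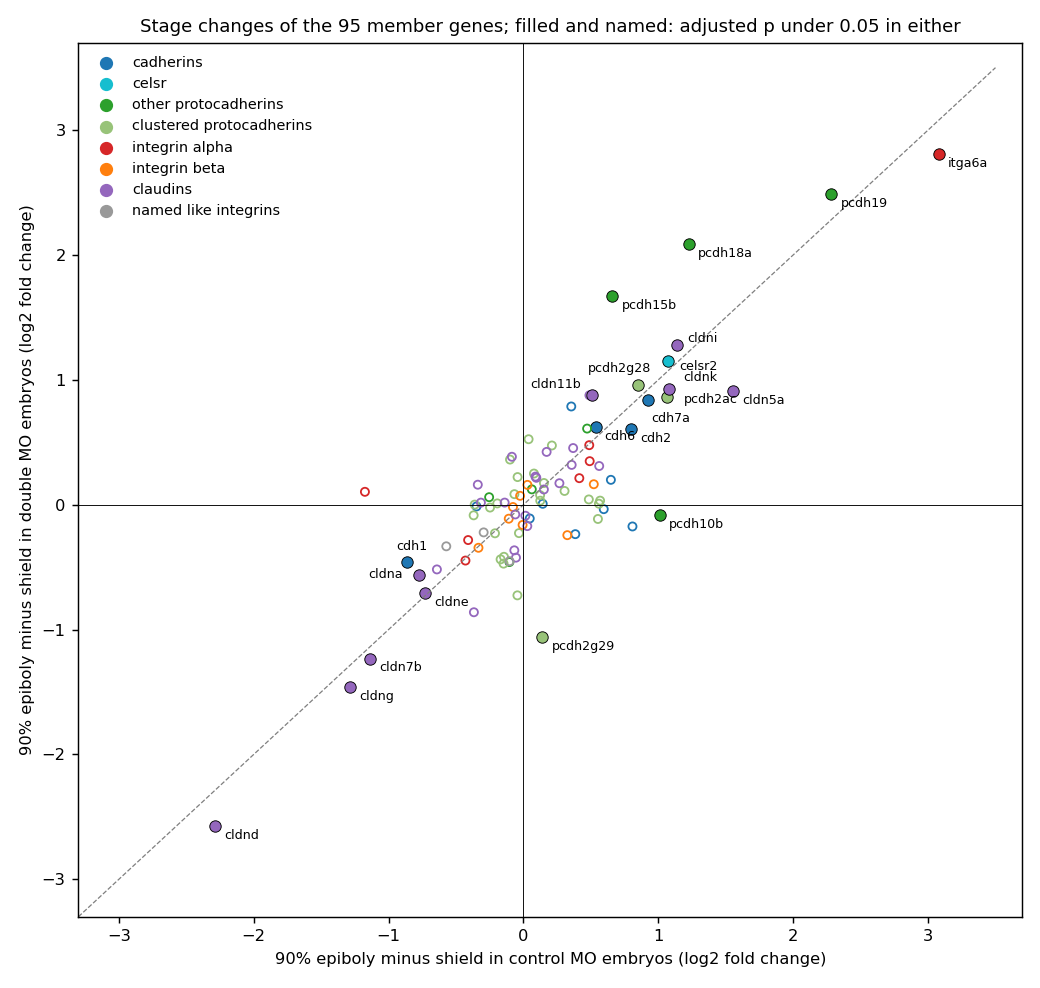
Log2 fold change of 90% epiboly minus shield in double MO embryos (vertical) and control MO embryos (horizontal) for the 95 members, colored by family, with the dashed line marking equal change. Filled and named points are the 22 members past an adjusted p of 0.05 in either, from *cldnd* at -2.58 in double and -2.29 in control MO embryos to *itga6a* at 2.81 in double and 3.08 in control MO embryos.

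*itga6a*, an alpha subunit of laminin receptors, rose the most of the 95 members in both treatments. In double MO embryos it was at 9.28, 9.38 and 9.73 at 90% epiboly and 6.93, 6.62 and 6.41 at shield. Control MO embryos had 9.56, 9.50 and 9.52 at 90% epiboly and 6.86, 6.36 and 6.10 at shield. The stages did not overlap. The log2 fold change was 2.81 (SE 0.21, adjusted p = 3.7e-06 from limma) in double MO and 3.08 (SE 0.21, adjusted p = 3.5e-06) in control MO embryos, 6.99 and 8.46 times the shield signal. A second feature rose by 1.75 in double MO and 1.28 in control MO embryos, and the remaining dim one did not pass (0.64 and 0.28). No other integrin subunit passed between stages in either treatment. In control MO embryos *itgb5* was at 0.52 (adjusted p = 0.056), *itga6b* at 0.41 (adjusted p = 0.080), *itga5* at -0.41 and *itgav* at -0.43.

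The protocadherins *pcdh19* and *pcdh18a* rose in both treatments. *pcdh19* was at 11.04, 10.63 and 10.89 at 90% epiboly and 9.43, 8.20 and 7.48 at shield in double MO embryos (2.48, adjusted p = 0.0014 from limma). Control MO embryos had 10.53, 10.86 and 11.08 at 90% epiboly and 9.15, 8.36 and 8.12 at shield (2.28, adjusted p = 0.0022). All 5 of its features passed in both, the other 4 between 2.21 and 3.32 in double MO and between 2.08 and 2.98 in control MO embryos. *pcdh18a* rose by 2.09 in double MO embryos (adjusted p = 1.4e-05) and by 1.23 in control MO embryos (adjusted p = 0.00073), and its second feature passed in both as well (0.94 in double MO, 0.64 in control MO).

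*pcdh10b* again depended on the feature. In double MO embryos feature 3246 did not pass (-0.09), while features 26611 and 40135 rose by 1.74 and 0.92. All 3 rose in control MO embryos, by 1.01, 2.11 and 1.11. *pcdh15b* rose in double MO embryos, where it was at 11.09, 9.94 and 10.75 at 90% epiboly and 9.36, 8.82 and 8.59 at shield (1.67, adjusted p = 0.015 from limma). Its control MO signal was 10.70, 9.96 and 10.08 at 90% epiboly and 10.38, 9.71 and 8.67 at shield, with overlap (0.66, adjusted p = 0.33).

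Of the clustered protocadherins, *pcdh2g28* rose by 0.96 in double MO and 0.85 in control MO embryos, and its next brightest feature rose by 1.52 and 1.70. *pcdh2ac* rose in control MO embryos by 1.07 (adjusted p = 0.027 from limma), but its other 6 features lay between -0.32 and 0.41 and none passed. *pcdh2g29* fell in double MO embryos, with a log2 fold change of -1.06 (adjusted p = 0.012), a comparison that uses the same 3 shield double MO samples as its rise at shield.

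*cdh1* and *cdh2* moved in opposite directions. In double MO embryos neither passed, with *cdh1* at -0.46 (adjusted p = 0.094 from limma) and *cdh2* at 0.61 (adjusted p = 0.075). *cdh1* fell in control MO embryos, at 9.05, 8.70 and 8.62 at 90% epiboly and 9.43, 9.68 and 9.86 at shield (-0.86, SE 0.17, adjusted p = 0.0048). *cdh2* rose in control MO embryos, at 12.90, 12.70 and 12.74 at 90% epiboly and 11.86, 12.11 and 11.97 at shield (0.80, SE 0.21, adjusted p = 0.024). The stages did not overlap for either gene in control MO embryos. The second *cdh2* feature passed in both treatments (0.77 in double MO, 0.91 in control MO), and the treatments were not shown to differ, since neither gene passed the interaction.

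Other cadherins rose too. *celsr2* was at 11.37, 11.29 and 11.35 at 90% epiboly and 10.80, 9.82 and 9.93 at shield in double MO embryos (1.15, adjusted p = 0.0050 from limma). The control MO values were 11.59, 11.23 and 11.47 at 90% epiboly and 10.41, 10.22 and 10.44 at shield (1.07, adjusted p = 0.0072). *cdh7a* rose by 0.84 in double MO and 0.92 in control MO embryos. *cdh6* rose in double MO embryos (0.62, adjusted p = 0.046), as did both its other features, beside 0.53 in control MO embryos (adjusted p = 0.086). *cdh11* was at -0.17 in double MO embryos and 0.81 in control MO embryos (adjusted p = 0.060).

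Of the 29 claudins, 4 fell, 2 rose and 23 did not pass in double MO embryos, and 5 fell, 3 rose and 21 did not pass in control MO embryos. Over all genes, 8.23% fell and 7.89% rose in double MO embryos, and 8.29% fell and 7.20% rose in control MO embryos. *cldnd* fell the most, to 9.36, 8.86 and 8.86 at 90% epiboly, against 10.67, 12.20 and 11.95 at shield, in double MO embryos (-2.58, adjusted p = 0.00048 from limma). Control MO embryos had 8.18, 8.54 and 7.97 at 90% epiboly and 10.15, 11.02 and 10.39 at shield (-2.29, adjusted p = 0.00094), and its second feature fell as well (-2.46 in double MO, -2.15 in control MO). *cldn7b* was at 12.04, 11.78 and 11.68 at 90% epiboly and 12.63, 13.36 and 13.20 at shield in double MO embryos (-1.23, adjusted p = 0.0018). The control MO values of *cldn7b* were 11.44, 11.48 and 11.36 at 90% epiboly and 12.28, 12.69 and 12.72 at shield (-1.14, adjusted p = 0.0027), and all 5 of its features fell in both treatments.

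*cldng* fell by log2 fold changes of -1.46 in double MO and -1.29 in control MO embryos, and its other feature passed too. *cldne* fell with -0.71 in double MO and -0.73 in control MO embryos. Of the other 5 *cldne* features, none passed in double MO and 2 passed in control MO embryos, and 1 had the opposite sign. *cldna*, dim in every group, passed in control MO embryos (-0.78, adjusted p = 0.038 from limma).

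*cldn5a*, the claudin of the brain ventricle barrier in zebrafish, was at 7.92, 8.56 and 8.72 at 90% epiboly and 7.65, 7.36 and 7.46 at shield in double MO embryos, short of the threshold (0.91, adjusted p = 0.053 from limma). It rose in control MO embryos, at 7.96, 8.69 and 9.03 at 90% epiboly and 7.43, 6.94 and 6.64 at shield (1.55, adjusted p = 0.0033). *cldni* rose by 1.28 in double MO and 1.14 in control MO embryos. Its next brightest features were at 0.98 and 0.84 in double MO and 1.03 and 0.67 in control MO embryos and did not pass, and its 3 dim features lay between -0.21 and 0.15. *cldn11b* rose in double MO embryos (0.88, adjusted p = 0.031) and *cldnk* in control MO embryos (1.08, adjusted p = 0.035), each with no other feature past the test. In control MO embryos *cldn5b* (0.56, adjusted p = 0.066), *cldnf* (-0.64, adjusted p = 0.082) and *cldn7a* (-0.09) did not pass.

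Markers of the enveloping layer and of the yolk syncytial layer beneath the blastoderm were set beside these claudins. Of 11 enveloping layer genes measured, none passed in double MO embryos (median log2 fold change 0.08), and their summed linear signal was 223834 to 264984 at 90% epiboly and 192696 to 221766 at shield. Of the same 11 in control MO embryos, 3 rose (*krt17*, *cyt1*, *cyt1l*) and 1 fell (*klf17*), and the sum was 280086 to 324872 at 90% epiboly and 181387 to 239855 at shield. That sum was higher in every 90% epiboly sample than in any shield sample of its treatment. The sum of 5 yolk syncytial layer genes was lower in every 90% epiboly sample, at 4368 to 5124 against 5783 to 6858 at shield in double MO embryos and 3977 to 4543 against 5993 to 6157 at shield in control MO embryos, with 2 of the 5 past the test in each treatment. Over all genes, 16.1% passed between stages in double MO and 15.5% in control MO embryos. The part of either layer in the claudin values was not tested.

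**Figure D5:**
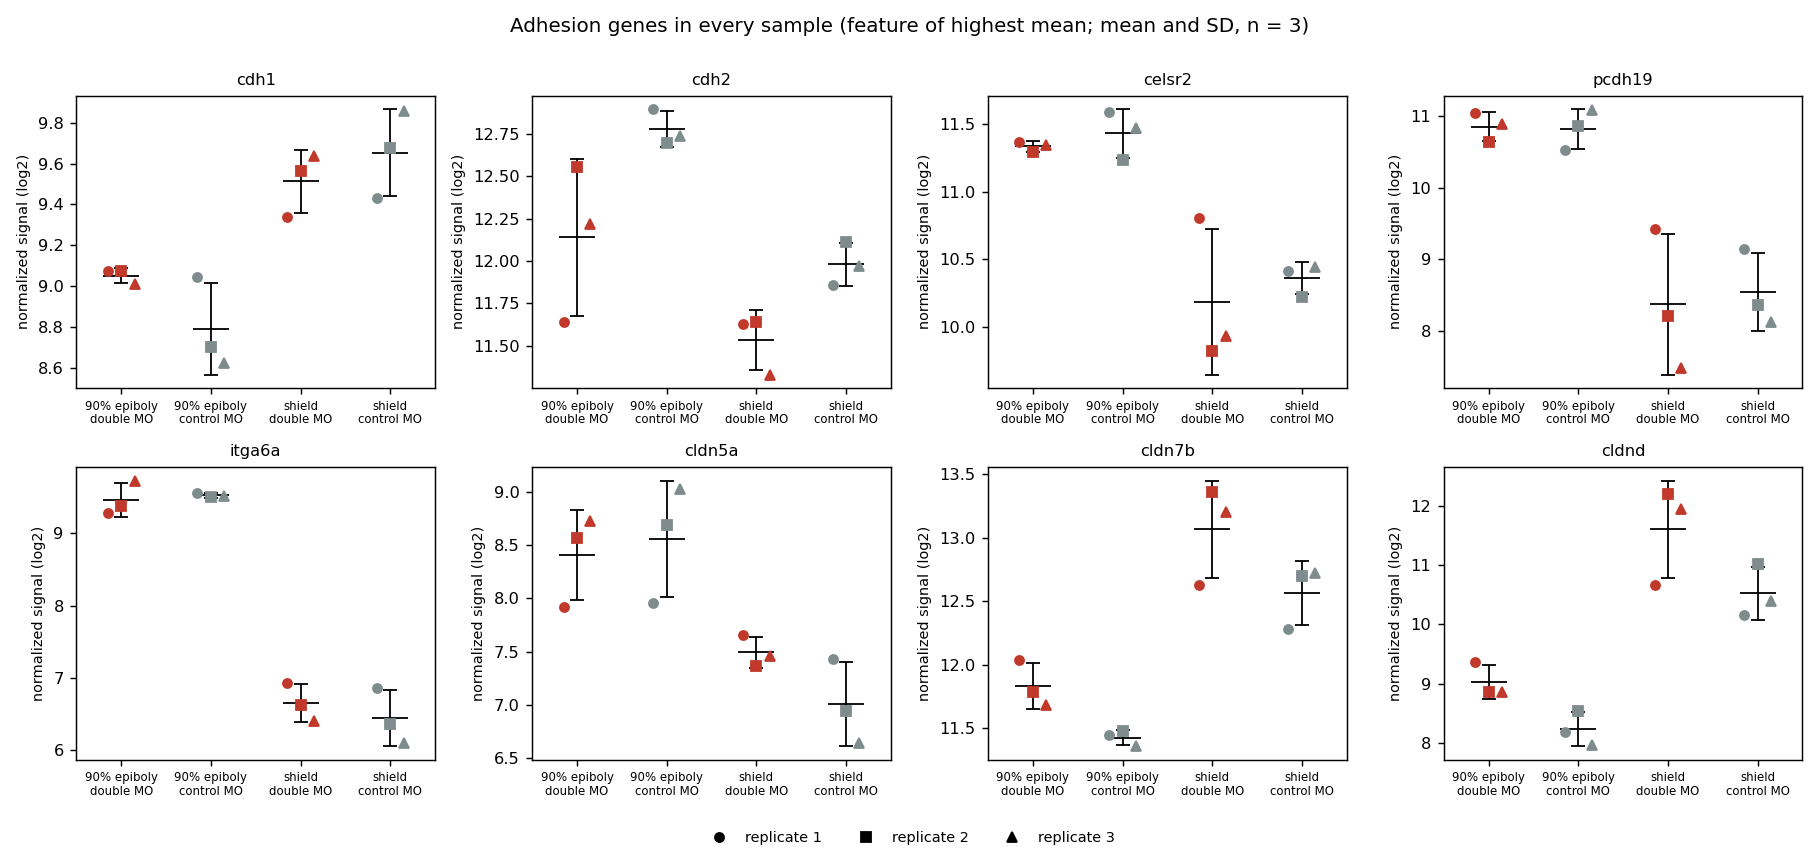
Normalized log2 signal of *cdh1*, *cdh2*, *celsr2*, *pcdh19*, *itga6a*, *cldn5a*, *cldn7b* and *cldnd* in the 12 samples, by group, with the mean and SD of 3 samples as bars and a scale of its own in each panel. *itga6a* lies above 9 in all 90% epiboly samples and under 7 in all shield samples, and *cldnd* lies under 9.5 in all 90% epiboly samples and above 10 in all shield samples. In both treatments the shield sample numbered 1 lies nearest to 90% epiboly for *cdh1*, *pcdh19*, *itga6a*, *cldn5a*, *cldn7b* and *cldnd*.

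Tight junction partners of the claudins were followed over the same stages. Of 13 measured, 5 fell and *jam3b* rose (1.00) in double MO embryos, and 5 fell and none rose in control MO embryos (limma, adjusted p under 0.05). Over all genes, 8.23% fell and 7.89% rose in double MO embryos, and 8.29% fell and 7.20% rose in control MO embryos. The list medians were -0.62 and -0.87, beside -0.01 and 0.02 over all genes. The same 5 genes fell in both, and they encode scaffolds and membrane proteins of the junction. They were *tjp2b* (-2.06 in double MO, -1.67 in control MO), *oclna* (-1.15 and -1.48), *tjp3* (-0.92 and -0.95), *marveld3* (-0.89 and -1.22) and *f11r.1* (-0.62 and -0.98).

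Of 12 integrin ligands, 4 rose and 1 fell in double MO embryos, and 3 rose and none fell in control MO embryos. The shares of all genes are those given for the tight junction partners. Among these ligands, *fn1a* (0.94 in double MO, 0.89 in control MO) rose in both treatments, as did the laminin chains *lama1* (1.57 and 1.31) and *lamb1a* (1.10 and 1.02). *fn1b* did not pass in its brightest feature (-0.32 in double MO, 0.60 in control MO), while its other 3 features passed in control MO embryos (1.38 to 1.96) and not in double MO embryos (-0.22 to 0.28). Of 11 catenins and cadherin partners, 4 rose and none fell in double MO embryos, and 3 rose and 1 fell in control MO embryos. The desmosomal genes *dspa* (0.83 in double MO, 1.03 in control MO) and *jupa* (0.82 and 0.76) rose in both. Of 14 regulators of cadherin genes, 3 rose and 3 fell in double MO embryos, and 4 rose and 4 fell in control MO embryos. Those that rose in both were *zeb2a* (2.16 in double MO, 1.62 in control MO), *zeb1b* (1.29 and 1.62) and *twist2* (1.24 and 2.07). Those that fell in both were *snai2* (-2.12 and -1.95), *grhl2a* (-0.86 and -1.51) and *snai1a* (-0.61 and -1.05). The other *snai1a* feature passed in control MO embryos (-1.21) but not in double MO embryos (-0.47, adjusted p = 0.17 from limma). The double MO call of *snai1a* held in 15 of 23 alternatives. Of 18 planar polarity partners, 1 rose in double MO and 2 in control MO embryos, *fzd3a* in both (1.47 and 1.46), and none fell. Of 14 integrin adaptors and kinases, 2 fell in double MO and 1 in control MO embryos, *ilk* in both (-0.99 and -1.01), and none rose.

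The shield samples numbered 1 stood apart in the stage comparison. Among the 15 members called in double MO embryos the shield sample numbered 1 lay nearest to the 90% epiboly mean in 11 (73.3%), and among the 18 called in control MO embryos in 12 (66.7%). Over all genes called this was 59.0% in double MO and 54.0% in control MO embryos. Without both of these arrays, an alternative chosen after seeing the data, 12 members were higher and 5 lower in double MO embryos, and 13 higher and 8 lower in control MO embryos. Single arrays weighed on the counts of risers. In double MO embryos 10 became 4 without shield sample 3 and 4 without 90% epiboly sample 3. In control MO embryos 12 became 6 without shield sample 3, 6 without 90% epiboly sample 2 and 5 without 90% epiboly sample 3. Shares of all genes with these arrays left out are not given, so the recounts do not set the members apart from other genes.

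Of the 95 members, 32 were dim in every group, among them 15 clustered protocadherins, 9 claudins and 3 cadherins, and for those the background of the array is unknown. Over all genes, 2823 of 13286 were dim in every group, a smaller share. Some brighter members varied widely between replicates. In its brightest feature, *cdh5*, the endothelial VE-cadherin, was at 7.31, 8.76 and 7.12 in double MO and 7.95, 9.19 and 7.36 in control MO embryos at shield, highest in the sample numbered 2 of each group. That feature did not pass between stages, while *cdh5* feature 10511 rose in control MO embryos (0.83, adjusted p = 0.034 from limma) and was at -0.19 in double MO embryos. *cldn8.3* showed the same at shield, at 7.71, 9.54 and 8.38 in double MO and 8.24, 9.65 and 8.39 in control MO embryos.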

How the data were processed

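Expression was measured in 12 samples, 3 in each of 4 groups named by the sample labels. Per the methods, RNA carried 1 dye and was hybridized to Agilent zebrafish arrays (version 3), and the authors deposited normalized log2 values. Background correction, normalization and software were not given in the sources used here, so no signal could be set against its background. The number of arrays limits precision. Array medians lay between 7.06 and 7.07, correlations within groups between 0.966 and 0.990, and 0 array pairs were identical.

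Of 45220 features, 26855 had 1 gene symbol, 0 several and 18365 none. Symbols were updated through a RefSeq gene table for 26842 features, and 13 kept the array's symbol. Of the member features, 172 matched by accession and 15 by symbol, and 9 member genes changed symbol. A further 10 genes of these families (15 features), listed on the array under other names, are not members under the rule. No sequences or coordinates are given.

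Group means were fitted over all features and 12 arrays with limma 3.58.1 in R 4.3.3 (8 residual and 5.32 prior degrees of freedom), with Benjamini-Hochberg adjustment over all features and a threshold of 0.05. Counts of genes use 1 feature per gene. Linear sums are 2 to the power of the log2 value. At shield, same-numbered samples deviated together (correlations 0.342, 0.348 and 0.297), so the numbers were taken to pair these samples, a reading of the data that no label states. At 90% epiboly they were 0.197, 0.0765 and 0.414, beside -0.274 to 0.0313 for pairs of unlike number. The numbers were not read as pairing samples of that stage, though each of these lay above every pair of unlike number and a pairing there remains possible. The main fit has no block, so its p-values leave any pairing out of account, and a replicate block was run as an alternative. For the MO comparisons that block joined same-numbered samples within each stage, 90% epiboly included. For the stage comparisons it joined same-numbered samples of both stages, a pairing that no label states. The main fit was tested on simulated data. Figures were made with Python 3.11.15 and matplotlib 3.10.9.

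The members, partner lists and markers were chosen with earlier results of these data known. Genes are named if they passed in a MO comparison or the interaction, were among the 3 smallest p there, were among the 8 largest stage changes in a direction without overlap, or were on a list of known adhesion genes. List genes past the MO test are named too. *cdh5*, *cdh7a*, *cldn8.3*, *cldnb*, *itga2b* and the list genes named for stage were chosen after their values were seen. Alternatives were each comparison on its own arrays, the replicate block, quantile, median and cyclic loess normalization, dim features left out, array weights, a robust variance with trend, the t-test of the methods, features of a gene averaged, each array left out, and both shield arrays numbered 1 left out, which was added after seeing the data.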

Additional observations from a re-analysis of the deposited data

How the results depend on the processing

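Quantile, median and cyclic loess normalization, the filter on dim features and trend with robust variance kept every count of members within 1.5 times its value in all 5 comparisons. At shield, the member higher became 0 with the replicate block, array weights, shield on its own arrays, the methods' t-test or both shield arrays numbered 1 left out, and the member lower became 0 in the last 3 of these. At 90% epiboly, the methods' t-test left 0 higher and 0 lower, features averaged gave 0 higher and 2 lower, and array weights gave 3 lower. Between stages the methods' t-test left 2 higher and 0 lower in double MO and 0 higher and 1 lower in control MO embryos, where its unadjusted p passed for 23 and 27 members (26.5% and 23.4% of all genes). With each array left out in turn, counts ran from 0 to 1 higher and 1 to 1 lower at shield, 0 to 1 higher and 1 to 2 lower at 90% epiboly, 4 to 11 higher and 4 to 5 lower between stages in double MO, and 5 to 13 higher and 5 to 8 lower in control MO embryos. No member passed the interaction in any alternative run. Apart from the unadjusted t-test, these recounts are of members alone, without the share of all genes. The stage change of *pcdh10b* in double MO embryos turned to 0.86 (adjusted p = 0.022) with its 3 features averaged, since feature 3246 differs from the other 2.

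Among the named members, the replicate block lost the shield call of *pcdh2g29* (adjusted p = 0.060) and, between stages in control MO embryos, those of *cldna* (0.056) and *cldnk* (0.053), and changed no other call. Over 23 alternatives, *itgb5* passed in 22 at 90% epiboly (highest adjusted p 0.081) and 20 at shield (0.44), *pcdh18a* in 16 at 90% epiboly (0.11) and *pcdh2g29* in 8 at shield (0.73). *fn1b* passed in 17, *tjp2b* in 21, *prickle2b* in 11 and *snai1a* in 7. Between stages, *itga6a*, *pcdh19*, *pcdh18a*, *cldnd*, *cldng*, *cldn7b* and *celsr2* passed in 22 or 23 in both treatments, *cdh1* in 22 and *cdh2* in 16 in control MO embryos. The number of arrays and an unknown background limit what dim members can show.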
